A study of Mus musculus with 9 samples.

Results

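The genes described are the enzymes, transporters and regulators that take up glucose, break it down by glycolysis, store it as glycogen or send it through the pentose phosphate pathway. They are 34 of the 27617 genes named on a mouse microarray, found by their gene names in the scanner files and carried by 61 probes. The array was hybridised with total RNA of 3T3-L1, an established line of mouse fibroblasts able to turn into fat cells, used here as undifferentiated preadipocytes. All cultures were grown with 10% fetal bovine serum and then kept without serum for 48 h. The control group then stayed untreated, and for 24 h the other groups received a compound at 70 µM, either X-1 or X-3. Both compounds are called derivatives of mangiferin in the series title, and their structures are not given. Each group had 3 arrays, numbered as replicates 1 to 3, with 1 Cy3-labelled sample per array. The design text speaks of 9 independent experiments, and the labels do not say how the cultures of 1 group were kept apart, so the spread between arrays may be partly technical. All cells come from 1 line, and no vehicle is named for the control.

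Glucose enters the cell through transporters of the Slc2a family and is trapped as glucose 6-phosphate by hexokinase. From there it can run down glycolysis to pyruvate, be stored as glycogen, or enter the pentose phosphate pathway, whose first, oxidative steps make NADPH and whose later, reversible steps return sugars to glycolysis. In cells of the fat lineage these routes supply the glycerol backbone and the NADPH that fat synthesis draws on.

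Each array held 43379 gene spots, of which 57.9% to 67.1% were well above background by the scanner software's own test and 0 were saturated. The 75th percentile of log2 intensity was 9.94 to 10.92 on control arrays, 9.63 to 10.66 with X-1 and 9.66 to 10.63 with X-3. On each of the 3 slides both treated arrays were dimmer than the control by this measure. Same-numbered arrays shared a slide, and a group always lay at the same place of the slide (1 for control, 2 for X-1, 3 for X-3), so that place and treatment cannot be told apart. X-3 replicate 1 stood apart from the other X-3 arrays: without it the genes called lower with X-3 than with X-1 went from 596 to 1556 of 16733, whereas without X-3 replicate 2 they went to 195. All 12 preadipocyte markers listed were above background on every array, with a summed level of 10.65 to 10.94 log2 units over the 75th percentile across the 9 arrays. Single markers moved within that sum. Pdgfra, Pdgfrb, Thy1, Sparc, Zfp423, Col1a1 and Col1a2 had lower group means with both compounds, and Dlk1, Fn1 and Ly6a higher ones. In control, X-1 and X-3, Pdgfra was at 4.66, 3.30 and 3.32, Pdgfrb at 5.84, 4.42 and 4.63, and Ly6a at −0.03, 3.36 and 3.56. Of 8 mature adipocyte markers only Fabp4 was above background on all arrays of every group, and Cfd, Lep and Slc2a4 were so on 0 of 9. The summed adipocyte level was −1.17 to −0.69 in control, −2.99 to −2.68 with X-1 and −2.57 to −2.35 with X-3, with group means of Fabp4 at −1.07, −3.91 and −3.56. Adipoq, Plin1 and Retn were above background on 0 control arrays and on 2 of 3 X-3 arrays, and Adipoq also on 1 X-1 array. The summed level of 4 epithelial markers was −3.44 to −3.21, −1.81 to −1.49 and −1.22 to −0.97 in the same order. Epcam and Cdh1 were above background on no array. Krt8 was above background on all arrays, with group means of −3.61, −1.72 and −1.23. Krt18, at −6.89, −6.28 and −4.92, was above background on 1 control, 0 X-1 and 3 X-3 arrays. For 4 endothelial markers the summed level was −4.40 to −4.01, −4.42 to −4.37 and −4.40 to −4.37. Of these, Tek was above background on all arrays, and Pecam1, Cdh5 and Kdr on none. Of 6 macrophage markers 3 were above background in each group, with summed levels of 1.60 to 1.74, 1.64 to 1.92 and 1.88 to 2.10, while Adgre1 and Itgam were so on 0 arrays. The part of these markers in the results was not tested. In RNA from whole cultures, fewer cells of a type and less RNA per cell cannot be told apart.

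A level below is the log2 processed intensity minus the 75th percentile of its array, and a difference is the difference of group means of such levels with its standard error from 1 limma fit to the 9 arrays (3 per group). Levels of 1 gene can be compared between arrays, not levels of different genes, since each probe binds differently. A gene was called when its Benjamini-Hochberg adjusted p over the 16733 genes tested was under 0.05. Of the 34 genes, 32 were tested, having a probe that some group showed well above background on each of its 3 arrays. The other two, the transporter Slc2a3 with 3 probes and the liver-type glycogen phosphorylase Pygl with 2 probes, were not well above background on any of the 9 arrays. Where a gene had several usable probes, the brightest stands for it.

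Both compounds raised the transcripts of most steps from glucose uptake to pyruvate, and of Gys1, Gbe1, Pgm1 and Ppp1r3c of the glycogen route. Pfkm, Pfkfb4, Aldoc, Gyg and Pygb fell with both. Ugp2, Pgm2, Taldo1 and Rpe were called lower with X-3 only, and Rpia and Tkt with X-1 only. At their other usable probe, Ugp2 and Tkt were called lower with both compounds. None of these genes was called different between the compounds. With X-1, 20 of the 32 genes rose, 7 fell and 5 were not called, where 28% of all genes tested rose and 28.2% fell. All 20 rose at least 2-fold, as did 15.2% of all genes, and 16 rose at least 4-fold, as did 5.59%. The median of the 32 differences was 2.10 against 0.06 for all genes, and it was 1.91, 2.20 and 2.14 on slides 1, 2 and 3. With X-3, 20 rose, 9 fell and 3 were not called, where 28.9% of all genes rose and 26.4% fell. Of these 20, all rose at least 2-fold and 15 at least 4-fold, as did 14.3% and 5.01% of all genes. The median was 1.84 against 0.05, and 1.60, 1.77 and 1.69 on the 3 slides. In 20 genes all X-1 arrays lay above all control arrays and in 8 all lay below, shares that were 34.7% and 33.8% over all genes. For X-3 the counts were 20 above and 9 below, against 32.7% and 29.2%. Both comparisons use the same 3 control arrays, so their counts are not independent of each other.

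The balance of higher and lower calls moved with the scaling of the arrays. Scaled to 8 spike-in probes, present in replicates 2 and 3, the median of all genes was −0.84 with X-1 and −0.65 with X-3. The members then split into 18 higher and 11 lower with X-1, and 17 higher and 12 lower with X-3, and all genes into 1540 higher and 9934 lower with X-1, and 1843 and 8372 with X-3. Scaled to the median of each array, all genes split into 3126 higher and 5115 lower with X-1 and 3081 and 4875 with X-3, in place of 4689 and 4727, and of 4837 and 4417. The members' median with X-1 and X-3 was 1.29 and 1.03 for spike-in scaling and 1.90 and 1.64 for median scaling. Each of these scalings moves all genes of an array by the same amount. They therefore cannot test whether the members stand above the other genes.

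**Figure D1:**
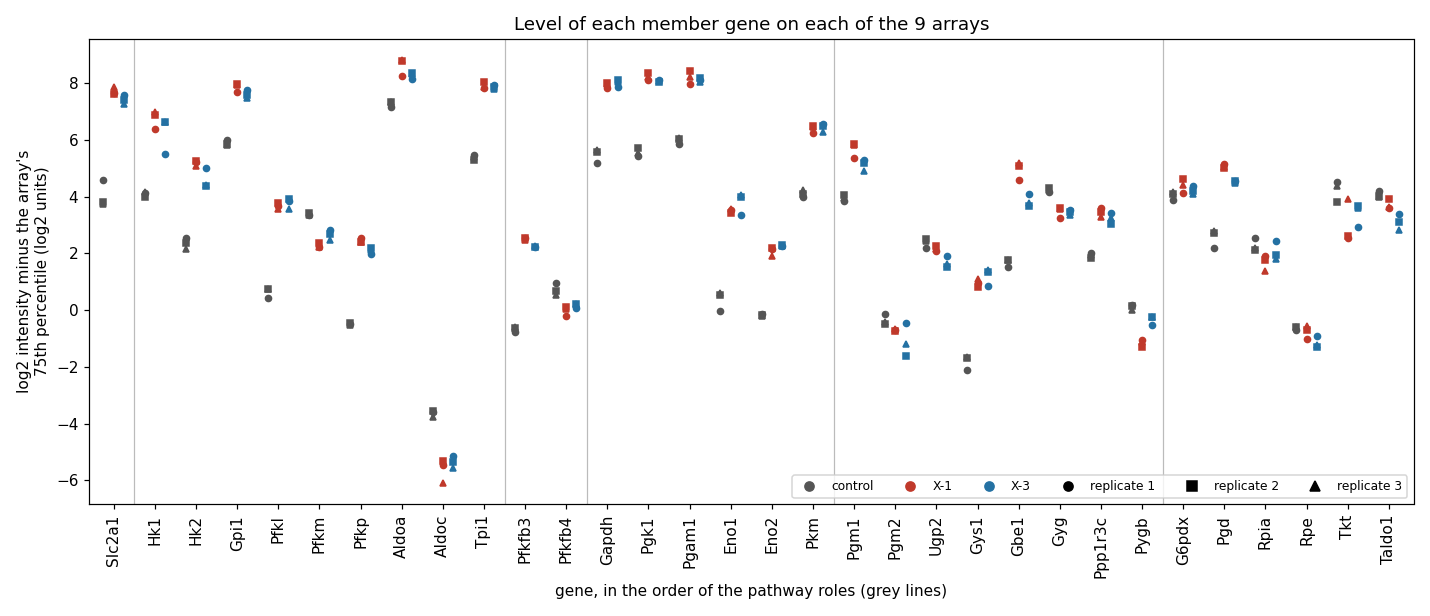
Level of each tested gene on each of the 9 arrays, in log2 units relative to the 75th percentile of the array, with the group as colour and the replicate as symbol. Genes stand in the order of their roles (uptake, upper glycolysis, fructose 2,6-bisphosphate control, lower glycolysis, glycogen, pentose phosphate), and in 20 of them the 3 arrays of each compound lie above the 3 control arrays. Levels can be compared within a gene only.

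**Figure D2:**
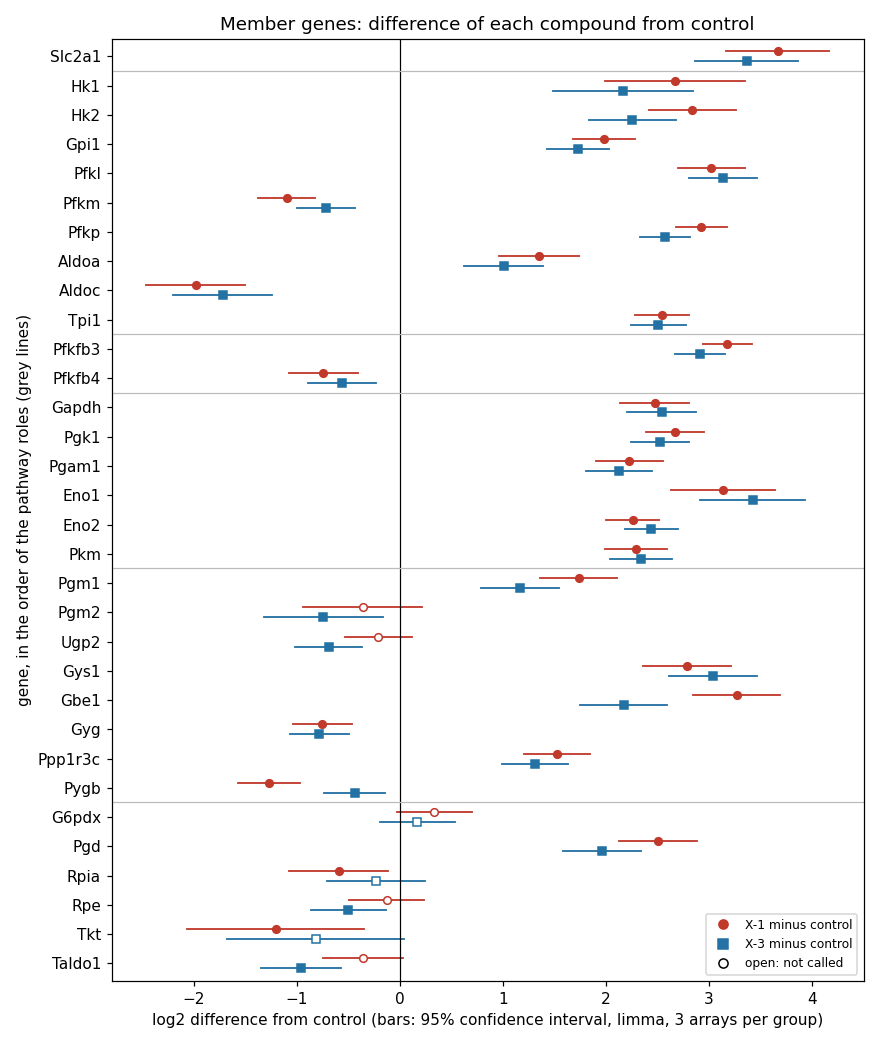
Difference of X-1 (red circles) and of X-3 (blue squares) from control for each tested gene, in log2 units, with 95% confidence intervals from limma over 3 arrays per group; open symbols did not pass the threshold. All 6 lower glycolysis genes lie between 2.13 and 3.42, while the pentose phosphate genes other than Pgd lie between −1.21 and 0.33.

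The promoters of 6 genes are shown because these genes carry the contrasts that follow: the transporter with the largest rise, the 3 phosphofructokinases that moved in opposite directions, a lower glycolysis gene and the gene that differed most between the compounds. Each is the 250 bases before the first start site listed by RefSeq (build GRCm38.p6), read 5′ to 3′ on the strand of the gene. Capitals mark the core letters bound by hypoxia-inducible factors, which are ACGTG in one form and GCGTG in the other. Read on the opposite strand the first form is CACGT, and the second form reads CACGC. The E-box of other factors, CACGTG, contains the first form.
Slc2a1, chr4:119108495-119108744, plus strand: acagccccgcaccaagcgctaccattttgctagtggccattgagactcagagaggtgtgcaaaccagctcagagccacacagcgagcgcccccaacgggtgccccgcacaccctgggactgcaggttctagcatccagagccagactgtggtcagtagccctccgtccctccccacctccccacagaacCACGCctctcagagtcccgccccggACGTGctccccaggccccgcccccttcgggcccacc
Pfkl, chr10:78009808-78010057, minus strand: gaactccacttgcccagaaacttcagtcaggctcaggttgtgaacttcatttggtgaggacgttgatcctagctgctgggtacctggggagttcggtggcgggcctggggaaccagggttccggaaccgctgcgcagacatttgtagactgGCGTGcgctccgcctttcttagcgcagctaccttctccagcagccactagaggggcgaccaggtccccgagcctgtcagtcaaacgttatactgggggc
Pfkp, chr13:6648772-6649021, minus strand: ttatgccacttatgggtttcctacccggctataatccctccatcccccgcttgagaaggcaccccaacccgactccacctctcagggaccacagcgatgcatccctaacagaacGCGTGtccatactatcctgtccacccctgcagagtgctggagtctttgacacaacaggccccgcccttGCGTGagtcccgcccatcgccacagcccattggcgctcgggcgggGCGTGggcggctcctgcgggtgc
Pfkm, chr15:98092339-98092588, plus strand: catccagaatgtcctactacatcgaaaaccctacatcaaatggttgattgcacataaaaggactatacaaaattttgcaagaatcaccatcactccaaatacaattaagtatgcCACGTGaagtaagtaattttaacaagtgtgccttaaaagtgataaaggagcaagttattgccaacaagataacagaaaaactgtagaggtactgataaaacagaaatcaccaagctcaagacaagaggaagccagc
Pgk1, chrX:106186850-106187099, plus strand: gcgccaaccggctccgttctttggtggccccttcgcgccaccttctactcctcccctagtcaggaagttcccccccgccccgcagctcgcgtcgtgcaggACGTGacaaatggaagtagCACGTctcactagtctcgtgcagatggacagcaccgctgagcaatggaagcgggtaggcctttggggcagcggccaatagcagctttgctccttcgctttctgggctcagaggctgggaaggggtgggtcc
Gbe1, chr16:70313699-70313948, plus strand: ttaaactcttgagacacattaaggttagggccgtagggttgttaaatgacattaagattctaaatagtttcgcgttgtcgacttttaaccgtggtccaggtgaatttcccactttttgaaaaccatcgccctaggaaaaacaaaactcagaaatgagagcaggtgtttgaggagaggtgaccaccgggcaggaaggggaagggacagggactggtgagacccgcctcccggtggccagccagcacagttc

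The promoters of Slc2a1 and Pgk1 each hold both orientations of the letters, the one of Pfkp holds GCGTG 3 times in the stretch shown and the one of Gbe1 holds none. The letters in the Pfkm stretch form the E-box CACGTG. Pfkm has 4 listed start sites and the one shown is the first, which has a further ACGTG match after the start. Around the second start both forms were present, around the third GCGTG, and around the fourth no match. Over the whole window of 300 bases, which also takes in 50 bases after the start, 27 of the 33 members with a listed promoter held at least 1 match, and 46.7% of all genes did. Among the 20 members that rose with both compounds, 15 (75%) held a match, and among the 11 that fell with at least 1 compound, 10 (90.9%) did. The promoters of the members were rich in CG, with a median of 20 CG pairs per window against 7 for all 32851 promoters. Counted by single promoter, 43.8% of all promoters and 71.9% of those with 20 to 29 CG pairs held a match. The members are counted as genes with a match in any listed promoter, so their shares cannot be set directly against these. Gpi1, Tpi1, Eno2, Gys1 and Gbe1, all of which rose, and Rpe, which did not, had no match in any listed window. A match is a string of letters and no evidence of binding.

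Slc2a1, the glucose transporter of most growing cells, rose most of the 32 genes with X-1. Its level was 4.59, 3.82 and 3.75 on control arrays 1, 2 and 3, 7.66, 7.63 and 7.88 with X-1, and 7.58, 7.41 and 7.27 with X-3. Every treated array lay far above every control array, and the control of slide 1 was the highest of its group. The difference was 3.67 ± 0.22 with X-1 (12.7-fold, adjusted p = 1.77e-06) and 3.37 ± 0.22 with X-3 (10.3-fold, adjusted p = 3.76e-06). Its probe lies at chr4:118809864-118809923 on the plus strand (build mm9, as the files give it).

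Of the 9 upper glycolysis genes, which turn glucose into triose phosphates, 7 rose and 2 fell with each compound. The shares over all genes were 28% higher and 28.2% lower with X-1, and 28.9% and 26.4% with X-3. The 2 that fell (22.2%) are thus near the background. Hk1 and Hk2, the hexokinases that trap glucose, both rose. Hk2 stood at 2.54, 2.37 and 2.14 in control, 5.21, 5.28 and 5.08 with X-1, and 5.00, 4.39 and 4.42 with X-3. The groups of Hk2 did not overlap, and X-3 lay between control and X-1. Its difference was 2.84 ± 0.19 with X-1 and 2.25 ± 0.19 with X-3. For Hk1 it was 2.67 ± 0.30 and 2.16 ± 0.30, and X-3 replicate 1, at 5.50, lay below replicates 2 and 3, at 6.62 and 6.64. All 5 usable Hk1 probes rose, by 2.56 to 3.15 with X-1 and by 2.06 to 3.18 with X-3.

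Phosphofructokinase, the committing step of glycolysis, is made from 3 genes named for liver, muscle and platelet. Pfkl, the liver form, was at 0.44, 0.76 and 0.76 in control, 3.67, 3.77 and 3.57 with X-1 and 3.87, 3.91 and 3.58 with X-3. Pfkm, the muscle form, was at 3.36, 3.44 and 3.36 in control, 2.24, 2.38 and 2.23 with X-1 and 2.84, 2.67 and 2.49 with X-3. The liver form was thus higher on every treated array and the muscle form lower on every treated array, with no overlap in either gene. Pfkl rose by 3.02 ± 0.14 (8.12-fold, adjusted p = 6.17e-07) with X-1 and 3.13 ± 0.14 (8.78-fold, adjusted p = 7.31e-07) with X-3. Pfkm fell by 1.10 ± 0.12 (2.14-fold lower, adjusted p = 6.98e-05) and by 0.72 ± 0.12 (1.64-fold lower, adjusted p = 0.00108). Pfkp, the platelet form, was at −0.49, −0.44 and −0.51 in control, 2.54, 2.41 and 2.39 with X-1, and 2.00, 2.18 and 2.11 with X-3. All treated arrays lay above control for this probe, and the difference was 2.92 ± 0.11 with X-1 and 2.57 ± 0.11 with X-3. The 3 Pfkp probes did not all rise: the second gave 3.80 and 2.95, and the third, at chr13:6579124-6579183, gave −0.26 and −0.72 and was not called with either compound (adjusted p = 0.706 and 0.294 over all probes).

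Aldolase, which splits the sugar, showed the same kind of contrast. Aldoa rose by 1.35 ± 0.17 with X-1 and by 1.01 ± 0.17 with X-3, from 7.15, 7.33 and 7.35 in control to 8.25, 8.81 and 8.82, and to 8.17, 8.37 and 8.32. Aldoc, the form best known from brain, stood at −3.58, −3.55 and −3.78 in control, −5.45, −5.31 and −6.10 with X-1 and −5.13, −5.37 and −5.56 with X-3. All treated arrays of Aldoc were below control, and with X-1 only 1 of 3 arrays was well above background, so the size of its fall there, 1.98 ± 0.21 on the log2 scale, rests on dim spots. With X-3 it fell by 1.72 ± 0.21. The rise of Aldoa was no longer called with spike-in scaling, where it was 0.57 and 0.30. Gpi1, which interconverts glucose and fructose phosphates, rose by 1.98 ± 0.13 and 1.73 ± 0.13, and Tpi1, which equilibrates the triose phosphates, by 2.54 ± 0.12 and 2.51 ± 0.12.

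Pfkfb3 and Pfkfb4 make and degrade fructose 2,6-bisphosphate, the strongest activator of phosphofructokinase. Pfkfb3 was at −0.78, −0.62 and −0.60 in control, 2.54, 2.54 and 2.46 with X-1, and 2.22, 2.23 and 2.28 with X-3. Pfkfb4 was at 0.96, 0.68 and 0.54 in control, −0.20, 0.13 and 0.03 with X-1, and 0.09, 0.20 and 0.20 with X-3. Pfkfb3 was high on all treated arrays and Pfkfb4 low on all of them, again with no overlap with control. Pfkfb3 rose by 3.18 ± 0.11 with X-1 (9.04-fold, adjusted p = 1.53e-07) and by 2.91 ± 0.11 with X-3 (7.52-fold, adjusted p = 3.31e-07). Pfkfb4 fell by 0.74 ± 0.15 (adjusted p = 0.00206) and by 0.56 ± 0.15 (adjusted p = 0.0096).

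**Figure D3:**
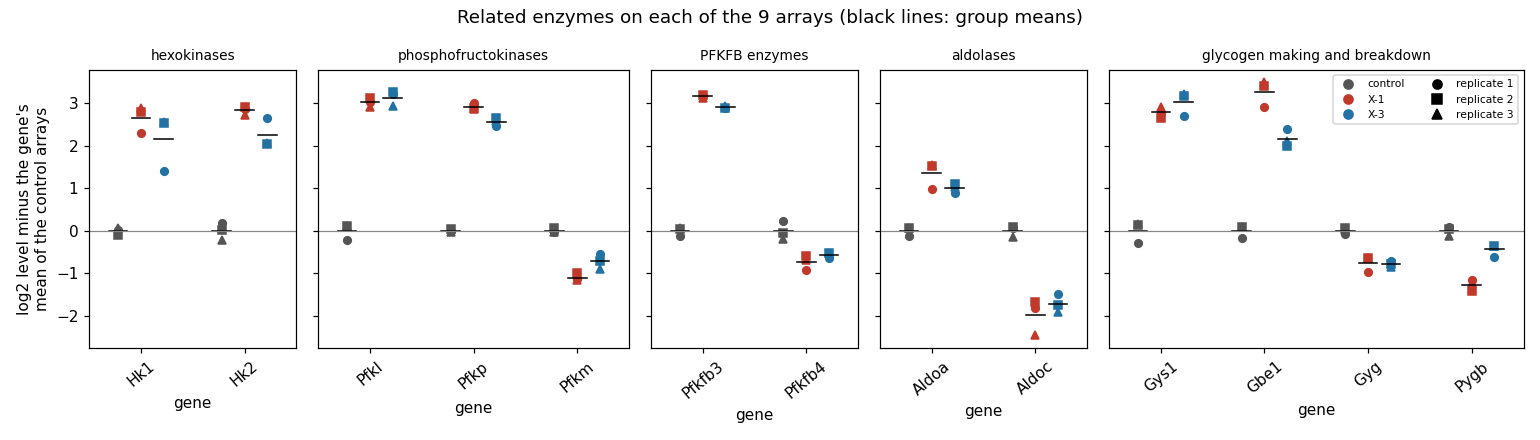
Level of related enzymes on each array minus the gene's own mean over the control arrays, in log2 units; black lines are group means of 3 arrays. Hk1, Hk2, Pfkl, Pfkp, Pfkfb3, Aldoa, Gys1 and Gbe1 lie above 0 on all treated arrays, while Pfkm, Pfkfb4, Aldoc, Gyg and Pygb lie below it.

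All 6 lower glycolysis genes, which carry the triose phosphates to pyruvate with a gain of ATP, rose with both compounds, by 2.22 to 3.13 with X-1 and by 2.13 to 3.42 with X-3. The shares of all genes that rose were 28% with X-1 and 28.9% with X-3. Gapdh, which oxidises glyceraldehyde 3-phosphate and is often used as a reference gene, was at 5.20, 5.56 and 5.65 in control, 7.84, 8.01 and 7.98 with X-1 and 7.86, 8.11 and 8.07 with X-3. Every treated array was above every control array. It rose by 2.47 ± 0.15 with X-1 (5.54-fold, adjusted p = 1.71e-06) and by 2.54 ± 0.15 with X-3 (5.82-fold, adjusted p = 2.07e-06). Pgk1, the first ATP-making enzyme of the route, was at 5.42, 5.72 and 5.56 in control, 8.11, 8.37 and 8.23 with X-1 and 8.13, 8.06 and 8.08 with X-3. Its groups of treated arrays lay close together and far from control, with differences of 2.67 ± 0.12 and 2.53 ± 0.12.

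Pgam1, which moves the phosphate group, rose by 2.22 ± 0.14 and 2.13 ± 0.14. Eno1, the common enolase, was at −0.02, 0.54 and 0.61 in control, 3.53, 3.43 and 3.57 with X-1 and 3.36, 3.99 and 4.05 with X-3. It rose by 3.13 ± 0.22 and 3.42 ± 0.22, with no overlap with control. Its probe is annotated in the files to the near-identical copy Eno1b as well, so signal of the pair cannot be told apart. Eno2, the enolase best known from neurons, rose by 2.26 ± 0.11 and 2.44 ± 0.11. Pkm, the pyruvate kinase of most tissues (named Pkm2 in the files), rose by 2.29 ± 0.13 and 2.34 ± 0.13 at its brightest probe, and its 3 probes gave 2.29 to 2.99 with X-1 and 2.34 to 2.69 with X-3. These probes were not used to separate its M1 and M2 splice forms.

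Of the 8 glycogen genes tested, 4 rose with each compound, 2 fell with X-1 and 4 fell with X-3. Against the all-gene shares of 28% higher and 28.2% lower with X-1, the 2 that fell with X-1 are at the background, and with X-3 those shares were 28.9% and 26.4%. Those that rose include the chain-building enzymes. Gys1, the glycogen synthase of most tissues outside liver, was at −2.13, −1.69 and −1.67 in control, 0.95, 0.82 and 1.10 with X-1, and 0.87, 1.35 and 1.40 with X-3. Gbe1, the branching enzyme, was at 1.51, 1.77 and 1.77 in control, 4.58, 5.09 and 5.18 with X-1, and 4.08, 3.68 and 3.79 with X-3. Both genes were higher on every treated array than on any control array, and the X-3 arrays of Gbe1 also lay below all its X-1 arrays. Gys1 rose by 2.79 ± 0.19 with X-1 (6.90-fold, adjusted p = 3.23e-06) and by 3.04 ± 0.19 with X-3 (8.21-fold, adjusted p = 2.80e-06). Gbe1 rose by 3.27 ± 0.19 (9.63-fold, adjusted p = 1.33e-06) and by 2.17 ± 0.19 (4.50-fold, adjusted p = 1.63e-05).

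Ppp1r3c, a scaffold that brings protein phosphatase 1 to glycogen, rose by 1.52 ± 0.14 and 1.31 ± 0.14. Pgm1, a phosphoglucomutase that links glucose 6-phosphate to glycogen (the files call it Pgm2, and call Pgm2 Pgm1), rose by 1.73 ± 0.17 and 1.16 ± 0.17. With spike-in scaling the rise of Ppp1r3c was not called with either compound (0.59 and 0.56), nor that of Pgm1 with X-3 (0.33). Gyg, glycogenin, the protein primer of the glycogen particle, was at 4.16, 4.30 and 4.24 in control, 3.27, 3.59 and 3.59 with X-1, and 3.53, 3.45 and 3.37 with X-3. It lay lower on all treated arrays and fell by 0.75 ± 0.13 (adjusted p = 8.46e-04) and by 0.78 ± 0.13 (adjusted p = 7.45e-04).

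Pygb, the brain-type phosphorylase that releases glucose from glycogen, was at 0.19, 0.15 and −0.01 in control, −1.05, −1.31 and −1.12 with X-1, and −0.51, −0.24 and −0.24 with X-3. The 3 groups did not overlap, and X-3 lay between control and X-1. Pygb fell by 1.27 ± 0.13 with X-1 (2.41-fold lower, adjusted p = 4.17e-05) and by 0.44 ± 0.13 with X-3 (1.36-fold lower, adjusted p = 0.019). The call with X-3 was lost without control replicate 1 (−0.40) or control replicate 2 (−0.42), with no filter on dim probes, and with the mean over its probes (−0.32). Its second probe gave −1.24 with X-1 (adjusted p = 0.00491 over all probes) and was not called with X-3 (−0.21, adjusted p = 0.552). Ugp2, which makes the UDP-glucose that glycogen is built from, was not called with X-1 (−0.21 ± 0.14, adjusted p = 0.237) and fell by 0.69 ± 0.14 with X-3 (adjusted p = 0.00307). At its second probe it was called lower with both, at −0.75 and −1.17, and under the mean over probes (−0.48) or spike-in scaling (−1.16) it was called with X-1 too. Pgm2, which acts on pentose and hexose phosphates, was not called with X-1 (−0.36 ± 0.26, adjusted p = 0.256), though it was under spike-in scaling (−1.15) and in a fit to those groups alone, and was called lower with X-3 (−0.74 ± 0.26, adjusted p = 0.0336). That call was lost without any 1 of the 3 control arrays, X-1 replicate 2, X-3 replicate 2 or X-3 replicate 3, with differences of −0.81 to −0.48, with no filter on dim probes and in a fit to those groups alone, and X-3 replicate 1, at −0.46, lay within the control range of −0.48 to −0.12.

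Of the 6 pentose phosphate genes 1 rose with each compound, 2 fell with X-1 and 2 fell with X-3. Over all genes 28% rose and 28.2% fell with X-1, and 28.9% rose and 26.4% fell with X-3, so these counts are near the background. Pgd, which makes NADPH and ribulose 5-phosphate, was at 2.18, 2.73 and 2.80 in control, 5.14, 5.03 and 5.05 with X-1, and 4.56, 4.54 and 4.49 with X-3. All treated arrays were above control, and Pgd rose by 2.50 ± 0.17 (5.67-fold, adjusted p = 2.96e-06) and by 1.96 ± 0.17 (3.89-fold, adjusted p = 1.58e-05). G6pdx, the enzyme before it and the entry to the pathway, was at 3.89, 4.11 and 4.18 in control, 4.12, 4.64 and 4.41 with X-1, and 4.37, 4.20 and 4.11 with X-3. These arrays overlapped with control. Its difference was 0.33 (95% interval −0.03 to 0.69, adjusted p = 0.106) with X-1 and 0.17 (−0.20 to 0.53, adjusted p = 0.4) with X-3, so a change of the size seen in Pgd lies outside both intervals. Its sign depended on the scaling. With spike-in scaling it was −0.52 with X-1 (adjusted p = 0.114) and was called lower with X-3 (−0.69, adjusted p = 0.0371), and with median scaling it was −0.04 with X-3. Without X-1 replicate 1 it was called higher with X-1 (0.47).

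The reversible steps that follow fell or were not called. Taldo1, transaldolase, was at 4.21, 4.01 and 3.98 in control, 3.59, 3.91 and 3.62 with X-1, and 3.41, 3.10 and 2.82 with X-3. All X-3 arrays lay clearly below control and the X-1 arrays just below it. Taldo1 fell by 0.96 ± 0.17 with X-3 (1.94-fold lower, adjusted p = 0.00135) and was not called with X-1 (−0.36 ± 0.17, adjusted p = 0.102), though it was called there without X-3 replicate 1, which left the value as it was (adjusted p = 0.0469). It was also called with X-1 under quantile normalization (−0.37), spike-in scaling (−1.13), a fit to those groups alone and the deposited scores. Tkt, transketolase, was at 4.51, 3.80 and 4.37 in control, 2.53, 2.61 and 3.91 with X-1, and 2.94, 3.67 and 3.61 with X-3. X-1 replicate 3 overlapped with control. At this probe Tkt fell by 1.21 ± 0.38 with X-1 (adjusted p = 0.0228) and was not called with X-3 (−0.82 ± 0.38, adjusted p = 0.0966). The X-1 call was lost without control replicate 1 or 3 or X-1 replicate 1 or 2 (−1.14 to −0.97), and without X-1 replicate 3 the X-3 difference, unmoved at −0.82, was called. The X-3 difference was also called under median scaling (−1.02), spike-in scaling (−1.15), the mean over probes (−1.38) and a fit to those groups alone. Its second probe was called lower with both compounds, at −1.70 and −1.94.

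Rpia, which makes ribose 5-phosphate, was called lower with X-1 (−0.60 ± 0.21, adjusted p = 0.0377) and not with X-3 (−0.23 ± 0.21, adjusted p = 0.375). Its X-1 call was lost without any 1 control array and without replicate 2 or 3 of X-1, with differences of −0.67 to −0.44, and with no filter on dim probes. Under spike-in scaling it was called with X-3 (−0.99). Rpe, an epimerase acting on ribulose 5-phosphate, was not called with X-1 (−0.13 ± 0.16, adjusted p = 0.516) and was called lower with X-3 (−0.50 ± 0.16, adjusted p = 0.0251). That call was lost without control replicate 2 or 3 or X-3 replicate 2 or 3 (−0.49 to −0.42), with no filter on dim probes and with the mean over probes (−0.43). Under spike-in scaling Rpe was called lower with X-1 (−0.93). The genes called in 1 comparison and not in the other are not thereby shown to differ between the compounds, which is tested next.

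**Figure D4:**
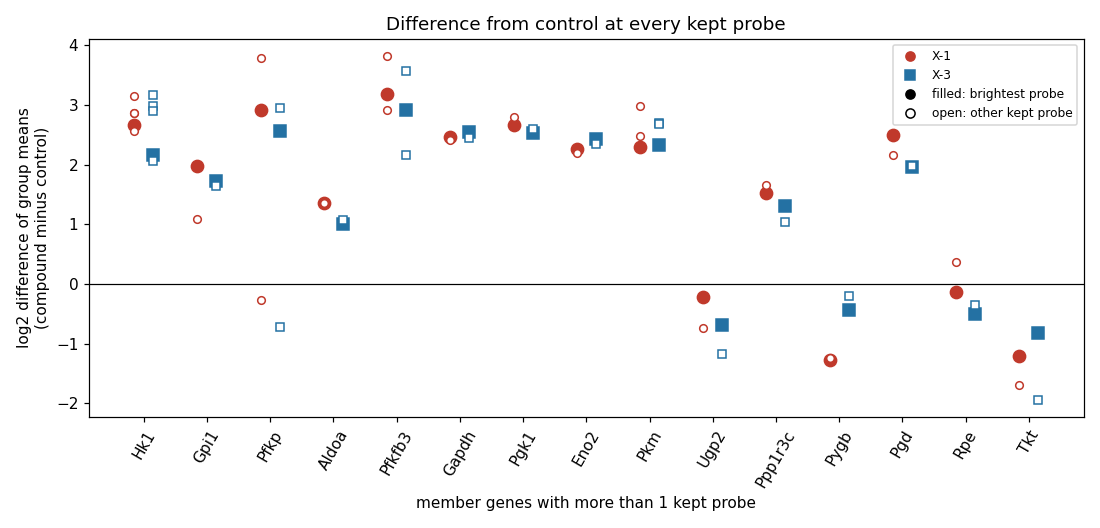
Difference from control at every usable probe of the genes with more than 1, in log2 units, for X-1 (circles) and X-3 (squares); filled symbols are the brightest probe that stands for the gene. Of the 53 usable probes of all members, 36 were called higher with each compound, 10 lower with X-1 and 11 lower with X-3. Of all 25285 probes tested, 7102 were called higher and 6749 lower with X-1, and 7215 and 6458 with X-3. Probes of 1 gene are not independent of each other, and 1 of the 3 Pfkp probes lies apart from the others.

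X-1 and X-3 were given at the same dose and time, so their responses can be set against each other as 1 pair. Only 2 of the 32 genes differed, both of the glycogen route: Gbe1 was lower with X-3 than with X-1 by 1.10 ± 0.19 (2.14-fold, adjusted p = 0.01) and Pygb was higher by 0.83 ± 0.13 (1.78-fold, adjusted p = 0.00817). Over all genes 6.97% were called higher with X-3 and 3.56% lower, so 1 higher and 1 lower of 32 is near the background. Over all genes 1166 were higher and 596 lower, and with spike-in scaling 1586 and 269, while the members stayed at 1 and 1. On slides 1, 2 and 3 the X-3 array minus the X-1 array was −0.50, −1.41 and −1.38 for Gbe1 and 0.54, 1.06 and 0.89 for Pygb. The slide with the smallest difference was slide 1 in both genes. Both calls were kept in all 20 alternative settings tried. All 3 X-3 arrays lay above all X-1 arrays in 3 genes and below them in 9, shares that were 19% and 11.8% over all genes.

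The other 30 genes were not called different between the compounds, and the median of all 32 differences was −0.16. For the 6 lower glycolysis genes the 95% intervals ran from −0.43 at the lowest to 0.80 at the highest, so differences of more than 0.80 lie outside them in all 6. For Slc2a1 the difference was −0.30 (95% interval −0.80 to 0.20), for Pfkl 0.11 (−0.21 to 0.44) and for Gys1 0.25 (−0.18 to 0.68). Hk2 (−0.58), Pfkp (−0.35), Pfkfb3 (−0.27), Pgm1 (−0.57), Ugp2 (−0.48), Pgd (−0.54), Taldo1 (−0.60) and Rpe (−0.37) had intervals below 0 and Pfkm (0.38) one above 0, but their adjusted p-values were between 0.0603 and 0.173. Without X-3 replicate 1, 6 genes were called lower with X-3: Gbe1, Hk2 (−0.78), Pgm1 (−0.65), Pgm2 (−0.69), Ugp2 (−0.59) and Taldo1 (−0.74). Without X-1 replicate 1, 3 were: Gbe1, Aldoa (−0.53) and Pgm1 (−0.73), and without control replicate 1, Gbe1 and Pgd (−0.54). Over all genes, those called lower with X-3 numbered 1556 without X-3 replicate 1. They numbered 523 without X-1 replicate 1 and 585 without control replicate 1, against 596 with all arrays.

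**Figure D5:**
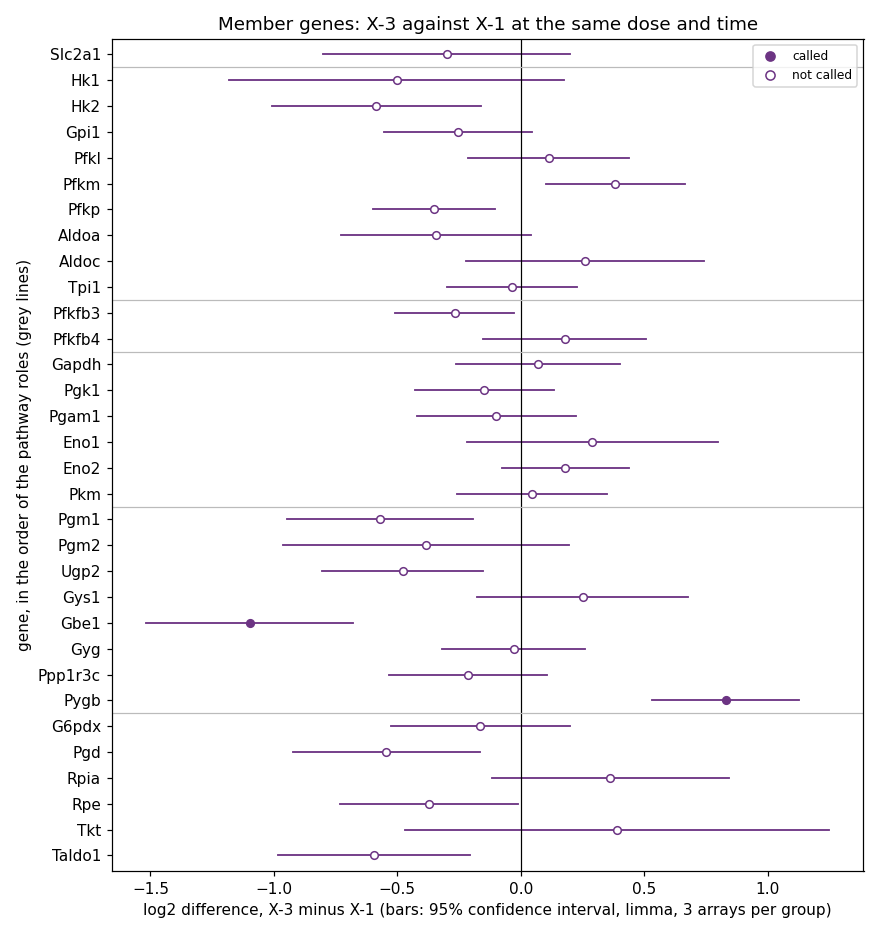
Difference between the compounds (X-3 minus X-1) for each tested gene, in log2 units, with 95% confidence intervals from limma over 3 arrays per group; filled symbols passed the threshold. Gbe1 at −1.10 and Pygb at 0.83 are the only filled symbols.

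Of 58 other genes listed for the same routes 57 were on the array and 42 were tested. With X-1, 13 rose and 18 fell, and with X-3, 15 rose and 17 fell, where 28% and 28.2%, and 28.9% and 26.4%, of all genes did. The largest rise with both compounds was that of Ppp1r3b, another scaffold of protein phosphatase 1 on glycogen, at 3.99 ± 0.11 and 3.66 ± 0.11. The rule for naming genes, which goes by the fitted differences, also names Pygm, the muscle phosphorylase, at least 2.27-fold higher with X-1 and at least 3.35-fold with X-3, and Hkdc1, a hexokinase relative, at least 2.43-fold and at least 2.06-fold. Both are given as bounds because no control array was well above background, and the bound sets the group's mean against the lowest signal called well above background on each control array, so their place in the order is not known. Pgam2, the muscle form of phosphoglycerate mutase, was above background on all arrays and rose by 1.86 ± 0.29 and by 1.81 ± 0.29, a larger fold than these bounds. The falls named by the rule were those of Ppp1r3d, a further scaffold of that phosphatase, by 2.88 ± 0.15 and by 2.97 ± 0.15, and of Pgm5, a relative of the phosphoglucomutases, by 2.82 ± 0.24 and by 2.54 ± 0.24, where 1 of 3 X-1 arrays was above background. The rule further names Slc2a9, a urate transporter of the same family as Slc2a1, at least 2.98-fold lower with X-1, where 0 of 3 arrays were above background. It names Slc2a13, a carrier of myo-inositol, with X-3. Slc2a13 was above background on all arrays and fell by 2.39 ± 0.13 with X-1, a larger fold than the bound of Slc2a9, and by 2.17 ± 0.13 with X-3. Slc2a4, the insulin-regulated transporter of mature fat cells, was above background on none of the 9 arrays. Between the compounds, 4 of the 42 (9.52%) were called higher with X-3 and 0 lower. Over all genes the shares were 6.97% and 3.56%, so these counts are near the background. The 4 were Gaa, the lysosomal enzyme that degrades glycogen (0.81 ± 0.11), G6pc3, a glucose 6-phosphatase (0.66 ± 0.12), Slc2a8 (0.68 ± 0.15) and Slc2a9. For Slc2a9, above background on 0 X-1 arrays and on 2 of 3 X-3 arrays, the bound is at least 1.02-fold. These 4 were named after their values were seen.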

How the data were processed

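Intensities of 9 one-colour arrays were analysed. Per the file headers, the deposited intensity of each spot was read with Agilent Feature Extraction (10.5.1.1 for replicate 1, 10.7.3.1 for replicates 2 and 3), which subtracted background; per the submitters' processing notes it was version 9.1. Slide 1 was scanned on another day and without spike-in RNA. The deposited series table holds a score per probe, standardized within each array, and its making is not given in the sources used here; it served as an alternative.

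From these, spots of a probe were averaged, 214 of 41174 probes marked as outliers were left out, and log2 intensity was reduced by the 75th percentile of each array. Kept were the 25285 probes that some group showed well above background on each of its 3 arrays, and the brightest kept probe stood for a gene (16733 genes). Probes were named through RefSeq by accession (24990), symbol (6290) or synonym (1625), and 8055 kept the name in the files. Two-sided tests used limma 3.58.1 in R 4.3.3, group alone in a single model of the 9 arrays, adjusted over all genes, and the script was tested on simulated data. Alternatives changed scaling, background correction, the filter on dim probes, the probe rule, the samples in the fit and the replicate block, or left out 1 array. The plan named the mean signal for normexp (offset 50), but the files of replicates 2 and 3 do not hold it, so the median signal was used on all arrays.

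Members and lists were chosen with earlier results of these data known. All members are named, and of the other pathway genes the 3 largest rises and the 3 largest falls past the threshold in each comparison with control. Deviations from the group means of same-numbered arrays, which share a slide, correlated across genes at 0.517, 0.318 and 0.271 for X-1 and control, at 0.238, 0.112 and 0.230 for X-3 and control, and at −0.04, −0.18 and 0.16 for X-3 and X-1. These correlations were all positive against control and of both signs between the compounds. Same-numbered arrays of control, X-1 and X-3 share a slide, so the numbers pair them in every comparison. The reported fit used group alone and not this pairing, which entered the tests only as the replicate block of an alternative. Precision is limited by having 3 arrays per group.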

Additional observations from a re-analysis of the deposited data

How the results depend on the processing

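Of the members called against control, 23 of 27 with X-1 and 23 of 29 with X-3 kept their call in all 20 alternative settings, as did both genes called between the compounds. The replicate block changed no call of a member: it gave 20 higher and 7 lower with X-1, 20 and 9 with X-3, and 1 and 1 between the compounds. Where a value below differs, the cause was not tested.

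The median of the members with X-1 was 1.90 with median scaling, 1.78 with quantile normalization, 1.29 with spike-in scaling, 1.86 with no filter on dim probes, 1.94 with the mean over a gene's probes and 0.42, in units of the deposited score, with those scores. With X-3 it was 1.64, 1.69, 1.03, 1.52, 1.64 and 0.40 in that order, and 1.96 over probes above background on all arrays. Spike-in scaling called 11 members lower with X-1, where it called 9934 of all genes lower. Of the other pathway genes, it called 4 higher with X-1 and 5 with X-3, and median scaling called 8 higher with X-3. Over all genes these higher counts were 1540, 1843 and 3081 in that order.

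Between the compounds, 2 members were higher with quantile normalization, with the percentile taken over probes above background on all arrays and with the deposited scores, and 3, 4 and 3 were lower in that order, and 2 when only probes above background on all arrays were tested. Other pathway genes called higher numbered 1 with median scaling or no filter, and 2 with spike-in scaling, the mean over probes or only those groups in the fit. Leaving out 1 array gave 1 to 6 members lower, 2 to 6 other pathway genes higher and 0 to 2 lower. Over all genes, the alternatives gave 317 to 1650 higher and 135 to 1556 lower, against 1166 and 596.

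Signs turned only in differences that the reported setting did not call, and of the turned values 1 passed the threshold, G6pdx with X-3 under spike-in scaling (−0.69, adjusted p = 0.0371). Against control, G6pdx also became −0.52 (X-1) with spike-in scaling and −0.038 (X-3) with median scaling, and Rpe (X-1) became 0.12 with the mean over probes and ran from −0.24 to 0.0024 with 1 array left out. Between the compounds, Tpi1 became 0.043, 0.082 and 0.0067 and Gyg 0.031, 0.024 and 0.01 with quantile normalization, spike-in scaling and the scores; Gyg also became 0.00089 with the percentile over probes above background. With the mean over probes Gpi1 became 0.15 and Pkm −0.015. With 1 array left out, Pkm ran from −0.034 to 0.13, Tpi1 from −0.080 to 0.032, Pgam1 from −0.22 to 0.015 and Gyg from −0.14 to 0.025. Dim spots limit Aldoc with X-1, and Slc2a3 and Pygl have no level.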
